A study of Oryza sativa Japonica Group with 30 samples.

Results

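The 7 genes described here encode NAC transcription factors of the rice seed, taken by locus identifier from a profile of 55801 gene identifiers. ONAC020 (LOC_Os01g01470, chromosome 1), ONAC026 (LOC_Os01g29840, chromosome 1) and ONAC023 (LOC_Os02g12310, chromosome 2) lie apart from one another. ONAC025 (LOC_Os11g31330), ONAC127 (LOC_Os11g31340), ONAC128 (LOC_Os11g31360) and ONAC129 (LOC_Os11g31380) lie close together in the identifier order of chromosome 11 and are the linked genes in what follows. All 7 loci were found in the profile and all 7 were read. The symbols were given together with the loci when the genes were chosen. Neither the deposited tables nor the RefSeq gene table pair a symbol with these loci, and 0 of the 39387 RefSeq genes carry an identifier of this form.

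NAC proteins share a DNA-binding domain at their amino end and bind DNA as dimers, with a more variable carboxyl end that activates or represses transcription. The family is large in plants and its members act in organ boundaries, secondary walls, senescence, stress and seed filling. In the rice endosperm, the starch-storing tissue of the grain, ONAC020 and ONAC026 are known as closely similar factors that act on genes for starch and storage proteins. ONAC127 and ONAC129 are the factors manipulated in the study, and are known to act in caryopsis filling.

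RNA came from whole caryopses (developing grains together with their coat) of field-grown Oryza sativa Japonica Group, taken 7 days after pollination. The 30 samples form 10 groups of 3. The 5 genotypes were ONAC127 overexpressing (OX-ONAC127), ONAC129 overexpressing (OX-ONAC129), an ONAC127 mutant (CR-ONAC127), an ONAC129 mutant (CR-ONAC129) and wild type (ZH11), each grown under natural heat stress (H) and under normal cultivation (N). Heat-stressed plants passed 35 °C for about 6 h a day with peaks near 40 °C, whereas normally cultivated plants did so on 3 days and had a mean daytime temperature near 30 °C. The labels do not state the promoter of the overexpression constructs, the lesion in the mutants or the number of lines per genotype. The replicates were independent RNA samples, and whether they came from separate plants is not stated.

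The design sets each transgenic genotype against the wild type in each condition, which makes 8 comparisons, and 8 tables were analysed, 1 for each. They were identical byte for byte and held 1 value per gene, the mean over libraries of read counts divided by a size factor for library depth. The result for the 7 genes is therefore a level in the pooled caryopsis, with the overexpressing and mutant lines included, and no level per genotype, condition or sample. No fold change between groups, no spread between samples and no test could be computed. The size factors were not listed and were inferred from the lowest values of the profile. As inferred, they ran from 0.551 to 1.64, so that 1 read was worth between 0.0203 and 0.0605 normalised counts. The larger of these sets an upper limit on the counting error of each pooled mean, given below as a limit on the standard error (SE). It covers counting error only, not the spread between samples, and reads without molecular identifiers are not independent molecules.

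As a check on the tissue, the storage protein gene GluA2, expressed in the starchy endosperm, had 47812 normalised counts and the oleosin gene Ole18, of embryo and aleurone, had 21160. MADS29, of the maternal nucellus, had 109.6, and OSH1, of the embryo meristem, had 15.3, a little less than 15.9, the median of the genes above 0. The 4 other markers listed for the seed tissues were not found in RefSeq by symbol. The marker listed for the green fruit coat, LOC_Os01g41710, had 10679, so the pool held RNA of this listed coat marker too. Those listed for starchy endosperm, or for embryo and aleurone, had 20001 to 39906. In such whole-organ RNA, fewer cells of a type and less RNA per cell cannot be told apart.

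The 3 unlinked genes stood close together near the top of the profile. ONAC026 had a pooled mean of 12059 normalised counts (counting SE at most 27.0) and ranked 98 of all genes. ONAC020 had 9389 (counting SE at most 23.8) and ranked 159. ONAC023, which like both others is known as a seed-expressed NAC gene, had 9178 (counting SE at most 23.6) and ranked 163. The highest of these genes was 1.31 times the lowest. ONAC026 ranked 9 and ONAC020 ranked 16 among the 6529 identifiers of chromosome 1, and ONAC023 ranked 26 among the 5377 of chromosome 2.

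Of the linked genes, ONAC025 reached the level of the unlinked genes, and the other three did not. ONAC025 had 11665 normalised counts (counting SE at most 26.6), ranked 108 of all genes and ranked 9 among the 4160 identifiers of chromosome 11. ONAC129 had 1309 (counting SE at most 8.90) and ranked 68 on that chromosome. ONAC127 had 593 (counting SE at most 5.99) and ranked 140 there. ONAC128 was the lowest of all 7 genes with 225 normalised counts (counting SE at most 3.69), at rank 310 on the chromosome. This lowest value was 14.1 times the median over all genes above 0. It rested on between 3722 and 11100 reads over the 30 libraries, depending on which libraries held them, and ONAC025 on between 192904 and 575385.

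**Figure D1:**
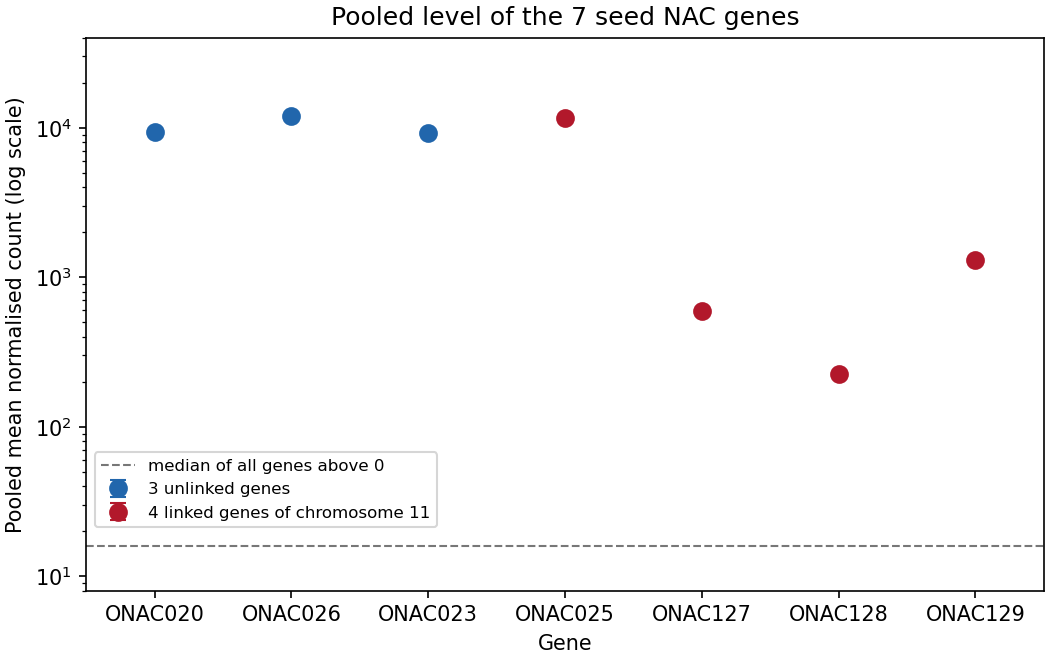
Pooled mean normalised count of each seed NAC gene (log axis), with the 3 unlinked genes in blue and the 4 linked genes in red. Error bars are the upper limit of the counting SE and are smaller than the points, and the dashed line is the median of all genes above 0. ONAC026, ONAC025, ONAC020 and ONAC023 lie between 9178 and 12059, while ONAC129, ONAC127 and ONAC128 lie between 225 and 1309.

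From high to low, the order was ONAC026, ONAC025, ONAC020, ONAC023, ONAC129, ONAC127 and ONAC128. Several neighbours in this order were close. ONAC026 was 1.03 times ONAC025, a difference of 394 normalised counts with a counting SE of at most 37.9. ONAC020 was 1.02 times ONAC023, a difference of 211 with a counting SE of at most 33.5. Both differences are larger than the counting error, but whether they exceed the spread between samples cannot be stated. The widest step was between ONAC023 and ONAC129, with a ratio of 7.01, and below it ONAC129 was 2.21 times ONAC127 and ONAC127 was 2.63 times ONAC128.

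These ratios compare read counts and are not per length. Gene lengths of the 7 loci were not used here, because the loci could not be tied to RefSeq genes. For scale, the 10 protein-coding RefSeq genes with a NAC symbol span 1313 to 4712 bases with introns, a ratio of 3.59 between the longest and the shortest. Whether any of the 7 loci is among them under another symbol is not known, and spans are not transcript lengths. The ratios of ONAC026, ONAC025, ONAC020 and ONAC023 to ONAC129, ONAC127 and ONAC128 run from 7.01 to 53.6, and the part of gene length in them was not tested.

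Summed, the 3 unlinked genes held 30626 normalised counts and the 4 linked genes held 13791, a ratio of 2.22. The medians stood further apart, at 9389 for the unlinked and 951 for the linked genes. Within the linked genes, ONAC025 held 84.6% of the sum, ONAC129 held 9.49%, ONAC127 held 4.30% and ONAC128 held 1.63%. The linked genes therefore spanned 51.8-fold, against the 1.31-fold span of the unlinked genes. Without ONAC025 the ratio of the sums was 14.4, so the closeness of the sums rested on this gene. All 7 genes together held 0.382% of the normalised counts of the profile. Where linked or similar NAC genes have near-identical stretches, shared reads may have been split or dropped in counting, and the values of ONAC020 and ONAC026, and of the linked genes, carry that uncertainty.

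The linked genes stood above most of the loci around them in the identifier order. The table lists 1 further locus among them, LOC_Os11g31370, which lies between ONAC128 and ONAC129. It had 0.932 normalised counts, which amounts to between 16 and 45 reads over all libraries. ONAC129 was 1404 times and ONAC128 was 242 times this value, but both ratios are rough because the locus had so few reads. The 10 identifiers on either side had a median of 0.289 normalised counts, 6 of these 20 were listed at 0, and 6 more lay above 0 but below 1. Among them only LOC_Os11g31470, with 437 normalised counts, passed any of the linked NAC genes, and it passed ONAC128 alone. The share at 0 was 30.0% in these flanks, beside 26.8% over all genes of the profile, whose median over all identifiers was 1.23 normalised counts. With 25 identifiers on either side, 11 of the 50 flanking loci (22.0%) were at 0 and their median was 1.62. The 4 NAC genes held 94.8% of the normalised counts of the narrower window and 65.2% of those of the wider one. Most of this was ONAC025, with 84.6% of the sum of the 4. Shares in windows elsewhere were not computed. The NAC genes were chosen for known expression in seed, so a place above their flanks partly describes that choice.

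The closest identifiers outside the linked genes were low on both sides. Before ONAC025, LOC_Os11g31320 had 1.37 and LOC_Os11g31310 had 0.224 normalised counts. After ONAC129, LOC_Os11g31390 had 2.63, LOC_Os11g31400 had 0.0648, and LOC_Os11g31410 had 0.0305, the worth of exactly 1 read in 1 library. In the wider window, the highest flanking locus was LOC_Os11g31060 with 5306, above ONAC129, ONAC127 and ONAC128 but below ONAC025.

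**Figure D2:**
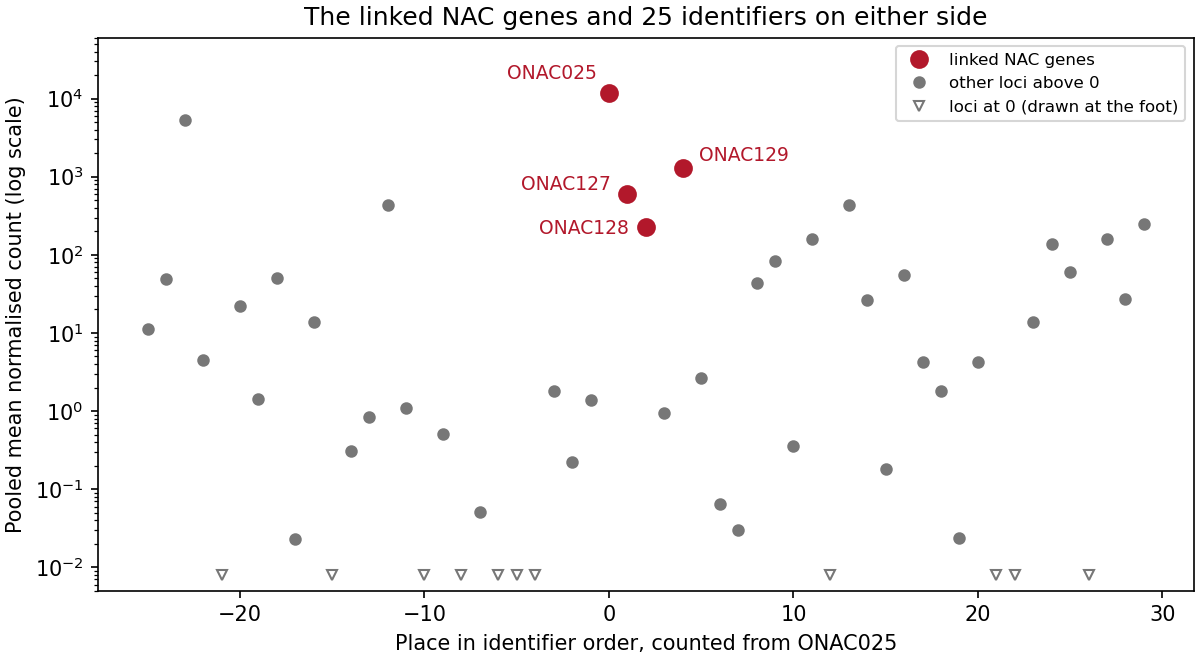
Pooled mean normalised count (log axis) of the linked NAC genes in red and of the surrounding loci in grey, in identifier order from ONAC025, with loci at 0 drawn as open triangles at the foot. The NAC genes lie between 225 and 11665, and the single locus among them, at 0.932, and the nearest loci on either side lie below 3.

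The step from ONAC025 to the identifier next to it, ONAC127, was 19.7-fold. A step of that size is common in the profile when low genes are counted. Of 33123 pairs of neighbouring identifiers with both genes above 0, 42.1% were at least that far apart, and the median was 11.2-fold. Among the 1855 neighbouring pairs in which both genes were at least as high as ONAC128, the median was 2.18-fold and 3.29% were at least 19.7-fold apart. The step of 2.63-fold from ONAC127 to ONAC128 was equalled or passed by 41.5% of those pairs.

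The 7 seed NAC genes were set beside 24 other NAC loci, listed from general knowledge of the family. Of those, 6 were also found in RefSeq by symbol, on the same chromosome and at a similar relative place, and are named here. The other 18 are given by locus only. The seed NAC genes had a median of 9178 normalised counts, against 32.0 for the other loci. Of the 24 others, 15 lay below ONAC128, and none was as high as ONAC023. The seed genes were chosen for their known expression in seed, so their higher median beside the 24 listed loci describes the choice.

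Among the 6 named others, SNAC2 (also OsNAC6), a factor known for stress tolerance, was the highest with 4242 normalised counts, between ONAC023 and ONAC129. OsNAC3 had 542 and OsNAC5, known from abscisic acid and stress responses, had 538, both just below ONAC127 at 593. OsNAC2 had 318, above ONAC128 alone. OsNAC4, known from cell death in plant defence, had 38.0 and ONAC045, known from drought and salt tolerance, had 19.0, below all 7 seed genes. Of the loci without a RefSeq symbol, LOC_Os03g60080 was the highest with 7661 normalised counts and LOC_Os05g34310 followed with 3514. The lowest were LOC_Os08g01330 with 0.766 and LOC_Os08g33910 with 0.333.

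**Figure D3:**
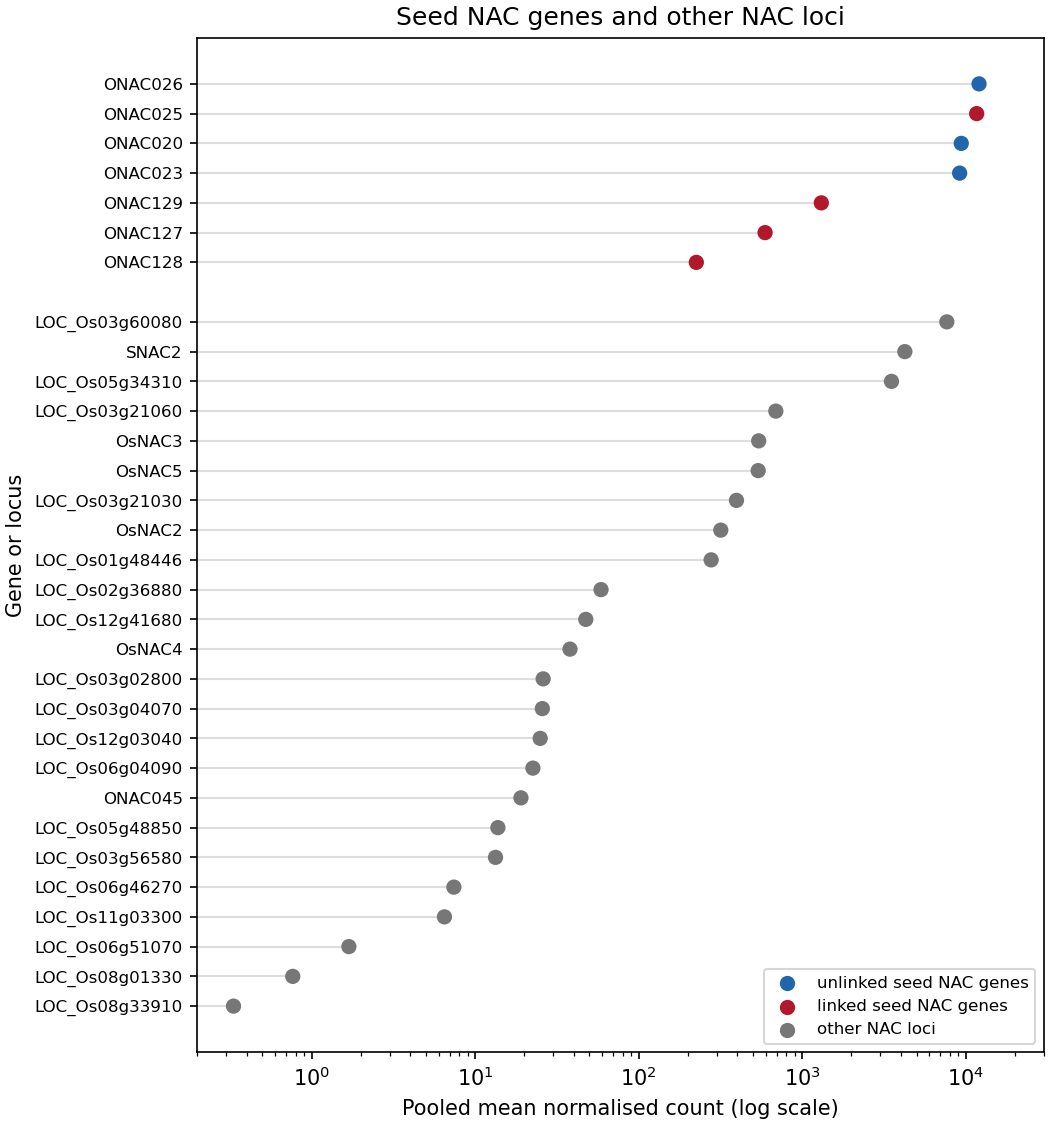
Pooled mean normalised count (log axis) of the 7 seed NAC genes, above, and 24 other NAC loci, below, each sorted by level. The 4 highest seed genes lie right of every other locus, whose highest is 7661, while 3 of the other loci lie above ONAC129 and 9 lie above ONAC128.

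Because the pool includes lines that overexpress ONAC127 or ONAC129, the pooled values of these genes are not wild-type levels. They still set upper limits, since a normalised count cannot lie below 0. Each overexpressing genotype accounts for 6 of the 30 libraries. The mean of ONAC127 over the 24 libraries outside OX-ONAC127 can be at most 741 normalised counts, and that of ONAC129 over the 24 outside OX-ONAC129 at most 1636. Over the 18 libraries of both mutants and the wild type, the limit was 988 for ONAC127 and 2181 for ONAC129. Both limits lie below the pooled means of ONAC026, ONAC025, ONAC020 and ONAC023, which cover all 30 libraries. Over the same 18 libraries those genes have no lower limit other than 0. The order of ONAC127 and ONAC129 beside them is therefore not fixed there.

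For the 6 wild-type libraries alone the limits are looser, at 2963 for ONAC127, 6543 for ONAC129 and 1125 for ONAC128. In any single group of 3, ONAC127 can average at most 5926 and ONAC128 at most 2250, while for ONAC129 the limit of 13086 passes the pooled means of the 4 highest genes. The pooled values therefore do not fix the order of any pair of the seed NAC genes in the wild type, ONAC127 and ONAC129 included. They give no lower limit for any group other than 0, and no check of the overexpressing or mutant labels.

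**Figure D4:**
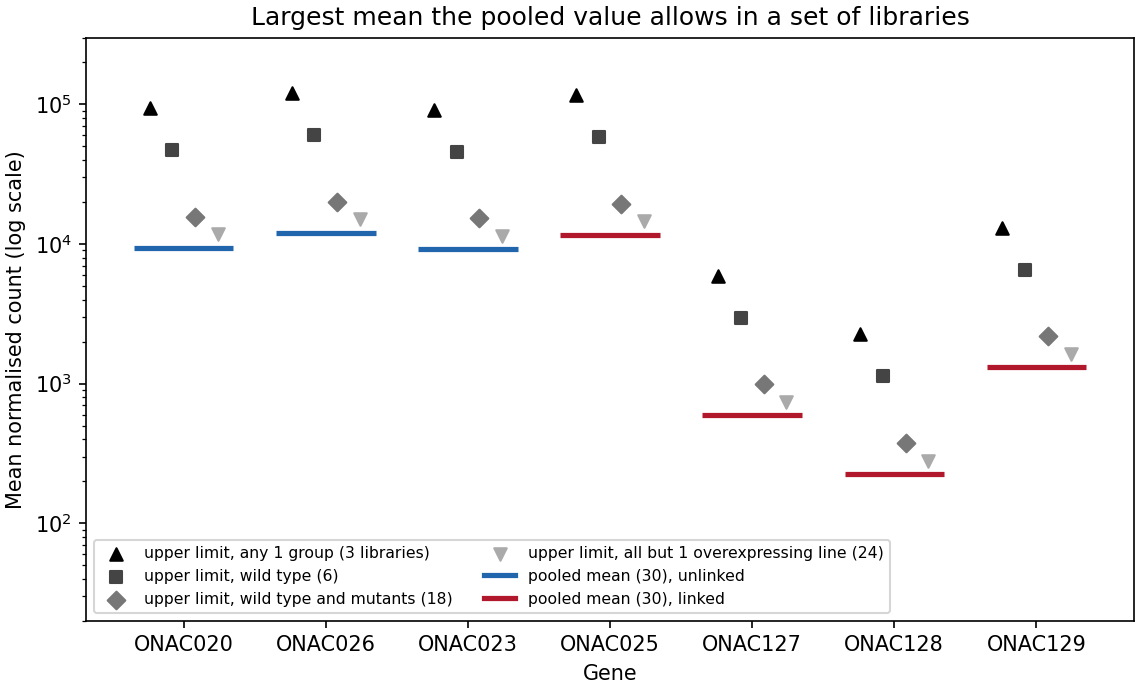
Pooled mean of each seed NAC gene (coloured bars, blue for unlinked and red for linked) and the largest mean that this value allows in sets of 3, 6, 18 or 24 of the 30 libraries (grey and black symbols), on a log axis of normalised counts. For ONAC127 the limits run from 741 for 24 libraries to 5926 for 3. These lie below the means of the 4 highest genes over all 30 libraries, which start at 9178. The smaller sets may hold lower means of those genes, so the limits do not fix the order within a set.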

How the data were processed

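RNA of 30 samples in 10 groups, assigned from the sample titles, was measured. Per the submitters' processing notes, processing by the authors involved DESeq2, HISAT2 2.0.5 and CASAVA 1.7. For the counting step, its strand setting, the build and the annotation, nothing is given in the sources used here. The deposited values are a signal named baseMean per the file headers, which is the DESeq2 name for a mean of counts divided by size factors, pooled over libraries. The 8 tables were identical and 0 columns of per-sample values were left aside, so no comparison of genotype or condition was tested.

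Members, gene lists and alternatives were chosen with earlier results of these data known. The rule for named genes took the 7 members, the 24 other NAC loci, any locus between linked genes, and, of the 10 identifiers on either side, those above a linked gene. Further flanking loci were named after their values were seen.

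The worth of 1 read per library was taken as those values up to 0.07 that are not sums of smaller ones within 1e-11, which gave 30 steps. The run was set to stop at any other number, so the match to the 30 libraries is not a check of the method. The size factor is the inverse of the step times 30. The method was tested on simulated data in which the upper limit of the search lay just above the true largest step. The limit of 0.07 used here was not simulated. The counting SE is at most the square root of the pooled mean times the largest step. The least and most reads behind a value are its product with 30 and the lowest or highest size factor. The largest mean in a set of libraries is the pooled mean times 30 over the number in the set. RefSeq symbols of assembly ASM3414082v1 were compared by chromosome and by relative place within 0.1. Percentiles used all identifiers, those above 0, or those of at least 10. Python 3.11.15, numpy 2.4.6, pandas 2.3.3, scipy 1.17.1 and matplotlib 3.10.9 were used.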

Additional observations from a re-analysis of the deposited data

How the results depend on the processing

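No paired analysis was possible because each gene has a single pooled value. Values per length were not computed, since the 7 loci could not be tied to gene lengths. The genes' percentiles depend on the background. Among all identifiers they were 99.82 for ONAC026, 99.72 for ONAC020, 99.71 for ONAC023, 99.81 for ONAC025, 97.07 for ONAC129, 93.58 for ONAC127 and 86.24 for ONAC128. Among genes above 0 they were, in that order, 99.76, 99.61, 99.60, 99.74, 95.99, 91.23 and 81.20, and among genes of at least 10 normalised counts 99.56, 99.28, 99.26, 99.51, 92.58, 83.77 and 65.19.

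The ratio of the unlinked to the linked genes was 2.22 from the sums, 9.88 from the medians and 2.58 with ONAC127 and ONAC129 left out. Leaving out each gene in turn gave 1.35 (without ONAC026) to 14.4 (without ONAC025). Every one of these ratios was above 1. The count of 15 other NAC loci below ONAC128 was the same with loci above 0 only.

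With 25 in place of 10 identifiers on either side, ONAC025 ranked 1 as before, ONAC129 ranked 3 (2 before), ONAC127 ranked 4 (3 before) and ONAC128 ranked 8 (5 before). Neighbouring pairs at least as far apart as ONAC025 and ONAC127 made up 42.1% with both genes above 0 and 3.29% with both at least as high as ONAC128. For ONAC127 and ONAC128 these shares were 76.7% and 41.5%. The choice of pairs was made after seeing the data. The number of steps stayed 30 with tolerances of 1e-12 and 1e-10. Counting error was at most 1.64% of the level for ONAC128, the lowest gene. The spread between samples, gene length and the overexpressing lines in the pool also limit these values.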
